A study of Mus musculus with 204 samples.

Results

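Brown fat was compared between mice made obese by a fat-rich diet and lean mice, with 4 libraries of each. They are 8 of the 10 brown fat libraries (sample titles containing BAT) and of 204 libraries in all that could be matched to a sample. The diet-induced obese (DIO) replicate 5 and the lean replicate 2 were left out because they held skeletal muscle transcripts. Levels are in CPM, the reads of a gene scaled to equal library totals. Genes entered when their mean over the 8 libraries reached 10 CPM, which held for 1742 of 13153 complete genes in the deposited table and of 6565 with a read in these libraries. Pacsin3 (10.01 CPM) and Pkn3 (10.06 CPM) lay just inside that limit, and Cir1 (9.996 CPM) and Tmem141 (9.99 CPM) just outside it. Replicate numbers follow the order of the records and pair nothing across groups.

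All mice were wild-type C57BL/6J males, an inbred strain prone to obesity. DIO mice had eaten a diet with 60% fat for 10 weeks from 4 weeks of age, and lean mice stayed on chow with 13.1% fat. The labels also give an age of 6 to 12 weeks on arrival, which does not sit with a start at 4 weeks, so age is known only within these statements. RNA came from frozen pieces of whole tissue, with no statement of the site from which brown fat was taken or of what was trimmed from it. The labels do not say which mouse gave which library, so p-values measure the spread between libraries. In such bulk RNA, fewer cells of a type and less RNA per cell cannot be told apart.

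Brown fat is the tissue that burns fuel to make heat. Its adipocytes hold many mitochondria, take up fatty acids and glucose, oxidise them, and let the proton gradient run down through uncoupling protein 1 when noradrenaline raises cyclic AMP. They also make fatty acids and glycerol anew to refill their lipid droplets, and they lie in a dense bed of capillaries and nerves. On a fat-rich diet brown fat is known to store more triglyceride and to look more like white fat. The values covered chromosomes 1, 2, 3 and X and the first part of chromosome 4. Uncoupling protein 1 and the other genes elsewhere were not analysed here.

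Markers of brown fat were high in part. Among 21 lean tissues, brown fat had the highest mean of Acadl (2656 ± 166.1 CPM, SD, n = 4) and Acadm (2082 ± 101.9 CPM), which start the oxidation of long and medium fatty acids. It was also highest for Hadh, Etfdh, Pdk1 and Slc25a44. Slc27a2, a fatty acid transporter and acyl-CoA synthetase, stood at 192.2 ± 67.34 CPM in lean brown fat and at no more than 3.03 CPM in the 4 white depots. Gk, the glycerol kinase that lets brown fat reuse glycerol, stood at 114.3 CPM against 7.22 to 15.8 CPM in white fat. Of 11 brown adipocyte markers in the table, Ckmt1, a mitochondrial creatine kinase, was below 1 CPM in all 8 libraries and ranked 20 of 21 lean tissues. Gatm, of creatine synthesis, was lowest of the 21 in brown fat (2.45 CPM), and Esrrg, a nuclear receptor, ranked 11 (25.03 CPM). Of the 9 tested, 3 rose (Gk, Hadh, Etfdh), 2 fell (Pdk1, Slc25a44) and 4 did not pass. Of all genes tested, 24.6% rose and 14.1% fell.

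Library totals were 18.9 to 28.9 M reads, of which 14.6% to 15.6% fell on genes of the table. Ttn, the giant muscle protein titin, was used to watch for muscle. It stood at 6.74, 1.43, 0.847 and 0.301 CPM in DIO 1 to 4, and at 1.31, 106.7, 37.3 and 97.9 CPM in lean 1, 3, 4 and 5. The lean libraries 3, 4 and 5 were therefore high and lean 1 was as low as DIO. The log2 level of Ttn differed by -3.59 (DIO minus lean) with an exact two-sided permutation p of 0.0857, the smallest possible being 0.0286, and the groups overlapped. In the libraries left out it stood at 765 CPM (DIO 5) and 295 CPM (lean 2). The choice of libraries used muscle genes, so the tests of these genes are a description of the libraries kept. In the limma fit over all genes Ttn fell with an adjusted p of 0.0231, which rose to between 0.0523 and 0.0644 without DIO 2, 3 or 4 or lean 3, 4 or 5. Neb and Tnnc2 had log2 changes of -2.17 and -2.92 (adjusted p = 0.080 and 0.0525), and Myl1 fell by 0.69. With all 10 libraries neither Ttn (adjusted p = 0.251) nor Myl1 (0.529) passed. An index of 10 genes that parted libraries of other tissues in earlier work on these data was 0.540 to 0.671 in DIO and 0.626 to 0.877 in lean, with an exact permutation p of 0.2. On the second principal component (11.5% of variance) lean 1 stood at -8.93 and the other 7 libraries between -1.37 and 3.66.

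Of the 1742 genes, 675 (38.7%) changed at an adjusted p below 0.05, with 429 rises (24.6%) and 246 falls (14.1%). The 2 groups did not overlap for 638 genes (36.6%), and 578 genes both changed and did not overlap. Most changes were small: 67 rises and 16 falls were at least 2-fold. The median log2 change of all tested genes was 0.04. Adjusted p-values here and below are from limma on log2(CPM + 1) with Benjamini-Hochberg adjustment, and log2 changes are on that scale. After rescaling by median-of-ratios factors 381 rose and 343 fell, so the share of rises went from 63.6% to 52.6%, and all 675 changes kept their sign. With log2 Ttn in the fit 395 genes passed, 350 of them among the 675. Of the 675, 674 kept their sign, with a median ratio of 0.889 to the first estimate and standard errors 1.34 times as large.

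Because lean 1 had as little Ttn as DIO, the comparison was repeated without it and lean 1 was then set against the result. It lay below all 4 DIO libraries for 377 of 453 genes called as rises without it (83.2%), while 34.5% of all tested genes showed that order. It lay above all 4 DIO libraries for 195 of 223 falls (87.4%, against 33.1% of all tested genes). The DIO libraries were the same in both steps, so this is not independent of the calls.

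**Figure D1:**
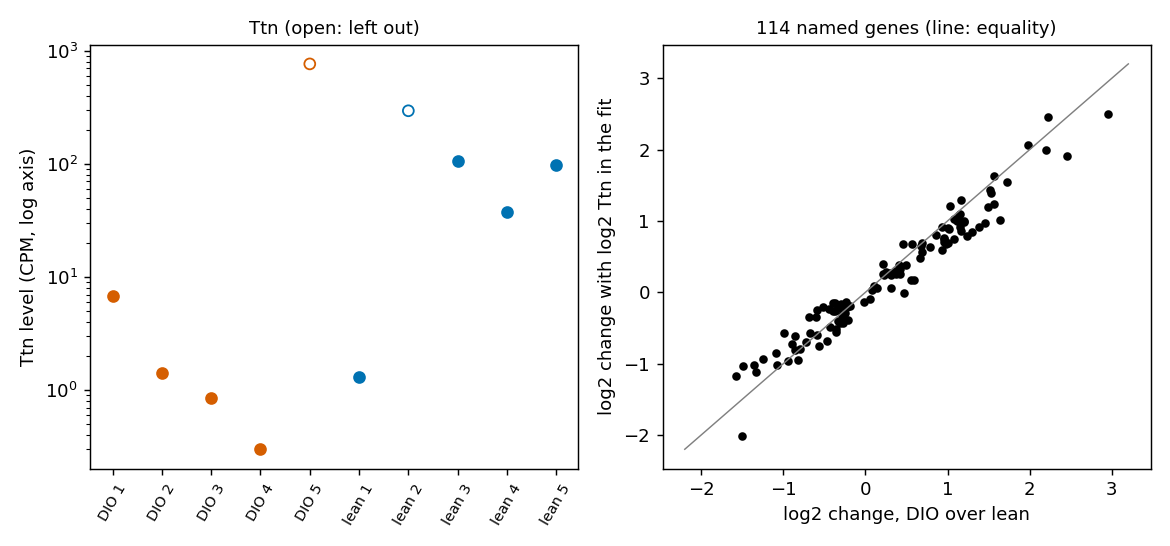
Left, Ttn in CPM on a log axis in each of the 10 brown fat libraries, with the 2 libraries left out as open circles. Right, log2 change of 114 named genes with (vertical) and without (horizontal) log2 Ttn in the fit. Ttn runs from 0.301 to 765 CPM, and most genes lie near the line of equality.

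Genes that make fatty acids and activate acetate were lower in DIO. Of 9 tested members of the fatty acid synthesis list, 5 fell, 1 rose and 3 did not pass, with a median log2 change of -0.33. Among all tested genes 14.1% fell and 24.6% rose. Acss2, the cytosolic enzyme that turns acetate into acetyl-CoA, stood at 361, 383.6, 233.1 and 235 CPM in DIO 1 to 4. In lean 1, 3, 4 and 5 it stood at 704.2, 1132, 919.8 and 824.8 CPM. Every lean library lay above every DIO library, by 2.95-fold in the means (log2 change -1.58, SE 0.19, adjusted p = 0.000166). Elovl6, which lengthens palmitate to stearate, stood at 760.5, 793, 472.1 and 499.3 CPM in DIO and at 1264, 1860, 2024 and 1840 CPM in lean. Its groups were also apart, with DIO 3 and 4 the lowest in both genes (log2 change -1.48, SE 0.20, adjusted p = 0.000276). Acsl3, an acyl-CoA synthetase of lipid droplets, fell from 65.6 ± 14.4 to 26.9 ± 4.31 CPM (SD, n = 4). Acsl4, which prefers arachidonate, and Acss1, the mitochondrial counterpart of Acss2, fell by 0.37 and 0.33 on the log2 scale. Neither passed with log2 Ttn in the fit (adjusted p = 0.408 and 0.313). Acsl4 also missed the threshold without lean 5 (0.0516), and Acss1 without DIO 2, DIO 3 or lean 5 (0.0741 to 0.0865). G6pdx, which supplies NADPH, had a log2 change of -0.24 (adjusted p = 0.073). The one rise was Nr1h3, the oxysterol receptor LXR alpha, from 55.6 ± 0.778 to 65.4 ± 1.27 CPM.

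Of 5 tested genes of cholesterol synthesis and storage, 2 fell, 1 rose (Nr1h3 again) and 2 did not pass. The share called was 60%, beside 38.7% of all genes. Pmvk, the phosphomevalonate kinase, stood at 50.7, 60.7, 45 and 40.2 CPM in DIO and at 91.8, 123.5, 96.7 and 107.6 CPM in lean. Nsdhl, which removes a methyl group on the way to cholesterol, stood at 52.7, 61.5, 52.8 and 46 CPM in DIO and at 82.5, 123.8, 88.8 and 95.7 CPM in lean. In both genes lean 3 was the highest library and the groups did not overlap, with log2 changes of -1.09 (SE 0.13) and -0.85 (SE 0.12). Ebp, a sterol isomerase, had a log2 change of -0.21 (adjusted p = 0.076). Pmvk and Nsdhl passed with log2 Ttn in the fit, at -0.85 and -0.61, as did Acss2 at -1.18 and Elovl6 at -1.03.

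Promoters of the 5 genes of these pathways that fell most are shown because their levels moved together. They are printed from RefSeq on GRCm38.p6, as the 250 bases before the listed start, 5′ to 3′ on the gene's strand. Capitals mark the letters CCAAT, the box read by NF-Y, or ATTGG, which is CCAAT on the other strand.
Acss2, chr2:155517793-155518042 (+ strand): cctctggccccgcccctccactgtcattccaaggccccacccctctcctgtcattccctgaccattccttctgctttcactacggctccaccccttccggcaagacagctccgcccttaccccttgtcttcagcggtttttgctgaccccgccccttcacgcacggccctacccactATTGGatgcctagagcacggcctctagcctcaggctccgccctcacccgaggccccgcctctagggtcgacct
Nsdhl, chrX:72918271-72918520 (+ strand): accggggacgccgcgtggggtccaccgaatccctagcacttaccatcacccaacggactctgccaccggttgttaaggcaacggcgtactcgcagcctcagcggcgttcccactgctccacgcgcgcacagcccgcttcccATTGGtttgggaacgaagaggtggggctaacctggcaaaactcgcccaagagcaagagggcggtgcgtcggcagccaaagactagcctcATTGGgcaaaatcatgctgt
Pmvk, chr3:89454291-89454540 (+ strand): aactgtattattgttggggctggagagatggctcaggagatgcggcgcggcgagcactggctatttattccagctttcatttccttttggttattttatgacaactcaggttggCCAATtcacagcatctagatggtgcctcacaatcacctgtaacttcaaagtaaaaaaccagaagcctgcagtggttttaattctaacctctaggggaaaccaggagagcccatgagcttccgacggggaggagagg
Acsl3, chr1:78657575-78657824 (+ strand): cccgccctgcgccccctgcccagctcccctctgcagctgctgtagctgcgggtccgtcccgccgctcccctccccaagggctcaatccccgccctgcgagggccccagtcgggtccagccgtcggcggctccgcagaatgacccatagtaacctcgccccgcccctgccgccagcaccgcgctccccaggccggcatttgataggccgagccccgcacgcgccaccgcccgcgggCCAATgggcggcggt
Elovl6, chr3:129532136-129532385 (+ strand): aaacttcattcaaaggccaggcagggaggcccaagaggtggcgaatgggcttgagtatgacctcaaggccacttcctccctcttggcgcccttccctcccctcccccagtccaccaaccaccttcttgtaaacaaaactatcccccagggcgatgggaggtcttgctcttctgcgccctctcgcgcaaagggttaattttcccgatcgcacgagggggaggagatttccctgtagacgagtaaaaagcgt

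Acss2, Acsl3 and Pmvk held 1 such box each in the printed stretch, Nsdhl 2 and Elovl6 none. The box of Acss2 began 73 bases before the start, the 2 of Nsdhl 109 and 20 bases before it, that of Pmvk 136 and that of Acsl3 15 bases before it. Of the 13 genes that changed in these lists and in the TGF-beta list, 10 had a promoter in the table. Searched on both strands from 250 bases before to 50 after the start, CCAAT was found in these 4 of the 10 and in 37.4% of all 32851 promoters. RefSeq lists a second start for Pmvk, whose window held no box. The sterol regulatory letters TCACNCCAC (1.24% of all promoters), the E-box CACGTG (7.15%) and the Smad palindrome GTCTAGAC (0.213%) were found in none of the 10. No motif's letters contain another's, and a match is a description of these windows.

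**Figure D2:**
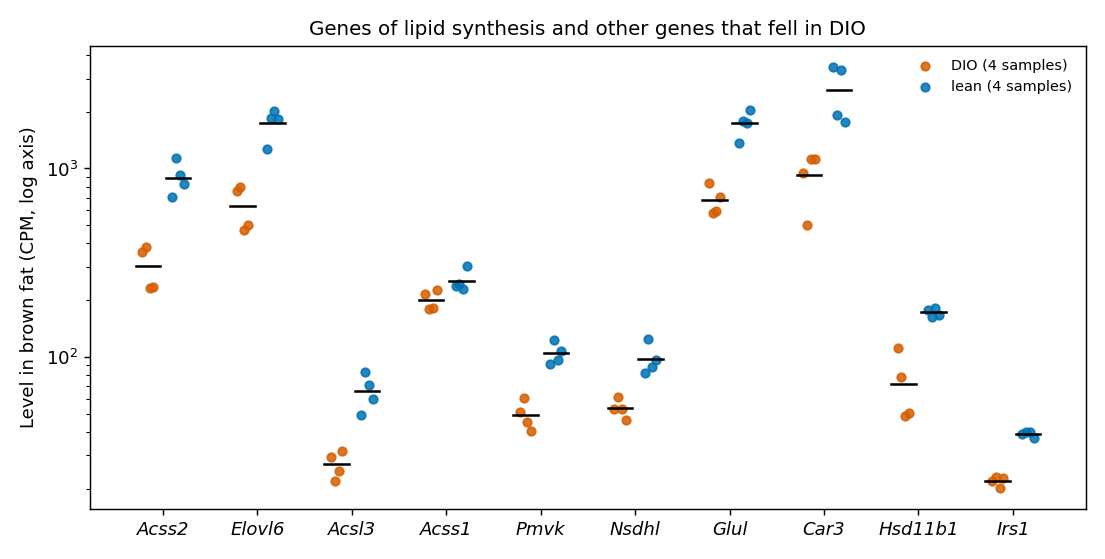
CPM on a log axis of 10 genes that fell, each point a library (4 DIO, 4 lean) and each bar a group mean. In all 10 genes the lean libraries lie above the DIO libraries, with the narrowest gap in Acss1.

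Fatty acid uptake and triglyceride handling moved both ways: of 11 tested genes 3 rose, 3 fell and 5 did not pass (median log2 change -0.02). The share called was 54.55%, beside 38.7% of all genes. Agpat2, which makes phosphatidic acid on the way to triglyceride, stood at 1400, 1222, 1084 and 1171 CPM in DIO and at 1427, 2107, 1948 and 1920 CPM in lean. Its groups were apart only narrowly because lean 1 was low, and the change (-0.59, SE 0.12) did not pass with log2 Ttn in the fit. Agpat2 shares exon positions with Egfl7 on the opposite strand, which rose, and whether the counting used strand is not given in the sources used here. Fabp5, a fatty acid binding protein, fell 1.65-fold, and Fabp4, the abundant adipocyte one, had 7604 ± 388.9 CPM in DIO and 7712 ± 608.1 CPM in lean (adjusted p = 0.893). Gk rose from 114.3 ± 16.3 to 221.6 ± 54.6 CPM (log2 change 0.93, SE 0.16, adjusted p = 0.0013). G0s2, an inhibitor of the triglyceride lipase ATGL, rose by 0.46 on the log2 scale and Lpgat1, an acyltransferase, by 0.57. Pck1, which feeds glycerol synthesis and is named here after its values were seen, stood at 3183 ± 330.6 and 3121 ± 669.6 CPM (log2 change 0.05, adjusted p = 0.831).

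Within the mitochondria the groups of genes did not move alike. Of 6 tested genes of fatty acid oxidation 3 rose and none fell, beside 24.6% rises and 14.1% falls among all tested genes. Hadh, the third step of beta-oxidation, stood at 1631, 1595, 1666 and 1776 CPM in DIO and at 1334, 1167, 1204 and 1280 CPM in lean, a rise of 1.34-fold with no overlap. Decr1, which handles unsaturated fatty acids, rose from 914.9 ± 49 to 1171 ± 61.3 CPM. Etfdh, which passes their electrons to ubiquinone, rose 1.24-fold and did not pass with log2 Ttn in the fit (adjusted p = 0.126). Acadm and Acadl had log2 changes of 0.10 and 0.08 (adjusted p = 0.34 and 0.47).

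Transcripts of several genes of pyruvate entry and of branched-chain amino acid breakdown were lower. In the citrate cycle and pyruvate list 5 of 9 tested genes fell and none rose (median log2 change -0.25). Among all tested genes 14.1% fell and 24.6% rose. Pdk1, a kinase that switches pyruvate dehydrogenase off, stood at 140.9, 140.8, 98.8 and 111.8 CPM in DIO and at 211.5, 224, 229.1 and 240.8 CPM in lean (1.84-fold lower, adjusted p = 0.000198). The enzyme complex itself also fell: Pdha1, its catalytic subunit, from 2728 ± 113.5 to 2076 ± 233.2 CPM, and Pdhx, its binding protein, 1.30-fold. Mpc2, a subunit of the mitochondrial pyruvate carrier, fell by 0.25 on the log2 scale, and Aco1, the cytosolic aconitase, by 0.43. With log2 Ttn in the fit Pdk1, Pdhx and Aco1 passed, and Pdha1 (adjusted p = 0.128) and Mpc2 (0.194) did not. Mpc2 also missed the threshold without DIO 3 (0.0502). Of 6 tested genes of branched-chain amino acid breakdown 5 fell and none rose (median log2 change -0.29), beside 14.1% falls among all genes. Slc25a44, the mitochondrial carrier of these amino acids, stood at 119.7, 113.2, 88.5 and 101.4 CPM in DIO and at 126.1, 164.9, 149 and 136.1 CPM in lean. Ivd, which oxidises the leucine product isovaleryl-CoA, fell 1.26-fold and Hibch, of valine breakdown, 1.22-fold. Hsd17b10, of isoleucine breakdown, and Mccc1, of leucine breakdown, fell by 0.29 and 0.19. The fall of Mccc1 (adjusted p = 0.041) was lost without any 1 of the libraries other than DIO 4 (0.0544 to 0.111). With log2 Ttn in the fit 3 of the 5 genes passed, Ivd, Hibch and Hsd17b10. With the library index 3 passed as well, and Hsd17b10 and Mccc1 did not.

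In the respiratory chain and ATP synthase 2 of 18 tested genes rose, 5 fell and 11 did not pass (38.9% called, median log2 change -0.05), near the 38.7% of all genes. Etfdh, given above, was among the rises. Small accessory subunits fell: Ndufb3 by 0.36, Ndufa1 by 0.36, Ndufb11 by 0.27 and Ndufb5 by 0.28 on the log2 scale, and so did Cox7b of complex IV by 0.31. None of these 5 falls passed with the library index in the fit, where the list had 1 rise and no fall. Ndufb5 also missed the threshold without DIO 2, 3 or 4 or lean 1 or 4 (0.0502 to 0.0799). The index itself holds Ndufc1 and Atp5e, 2 members of this list, among its 10 genes.

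**Figure D3:**
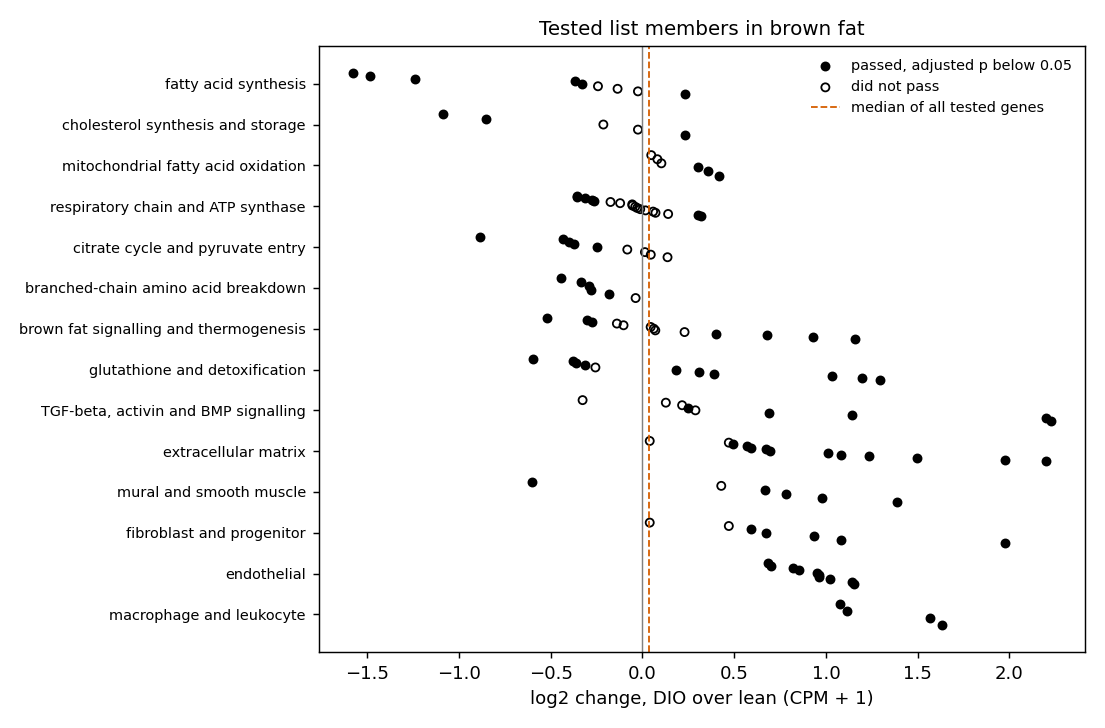
Log2 change of every tested member of 14 lists, one dot per gene, filled where it passed. The dashed line is the median of all tested genes. Synthesis and amino acid breakdown lie to the left and matrix, endothelial and macrophage genes to the right, while respiratory chain genes lie on both sides.

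In the list of brown fat signalling and thermogenesis 4 of 13 tested genes rose, Gk among them, 3 fell and 6 did not pass. Among all tested genes 24.6% rose and 14.1% fell. Gnas, whose main product is the stimulatory G protein between adrenergic receptors and cyclic AMP, stood at 3086, 2725, 2982 and 3168 CPM in DIO and at 1956, 1881, 1689 and 1958 CPM in lean. Its groups were well apart (1.60-fold, log2 change 0.68, SE 0.08, adjusted p = 0.000155), and it passed with log2 Ttn in the fit at 0.65. Slc25a25, a mitochondrial carrier of ATP-Mg and phosphate, rose from 6.52 ± 1.82 to 16.2 ± 6.67 CPM, and Slc6a8, the creatine transporter, 1.34-fold. Slc25a25 reached the limit of 10 CPM through its DIO level, so its place in the count was set by the filter. Receptors that restrain cyclic AMP were among the falls: Adora1, the adenosine A1 receptor, by 0.30 and Ptger3, a prostaglandin E receptor, by 0.52. The groups overlapped in Adora1, and in Ptger3 as well, with lean 3 and 4 well above the rest. None of the list's genes fell with log2 Ttn in the fit (adjusted p = 0.385 for Adora1 and 0.579 for Ptger3), and neither receptor passed with the library index (0.103 and 0.0857). Adora1 missed the threshold without DIO 2, 3 or 4 or lean 3 or 4 (adjusted p = 0.0515 to 0.0849), and Ptger3 without any 1 DIO library or lean 3 or 4 (0.0643 to 0.135). Atf2, a transcription factor downstream of p38 kinase, fell by 0.27 and not past the threshold with log2 Ttn in the fit.

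Other large falls lay outside these pathways. Glul, glutamine synthetase, stood at 835, 581.1, 591.4 and 702.8 CPM in DIO and at 1369, 1784, 1750 and 2055 CPM in lean. All lean libraries were higher, by 2.57-fold (log2 change -1.36, SE 0.14, adjusted p = 8.83e-05), and with log2 Ttn in the fit the change was -1.01. Car3, the carbonic anhydrase abundant in fat and slow muscle, stood at 949.9, 499.8, 1129 and 1123 CPM in DIO and at 3459, 1915, 3323 and 1761 CPM in lean. The 2 lean libraries with the most Ttn had the least Car3 of their group, and with log2 Ttn in the fit its change was -2.02, against -1.501 without Ttn. Car5b, a mitochondrial carbonic anhydrase, fell 2.14-fold. Hsd11b1, which regenerates active glucocorticoid, stood at 111.4, 77.9, 48.4 and 50.6 CPM in DIO and at 163.1 to 182.1 CPM in lean. Irs1, the adaptor of the insulin receptor, fell from 39 ± 1.27 to 22 ± 1.29 CPM (1.77-fold, adjusted p = 1.87e-05). Dpyd, which starts pyrimidine breakdown, fell 1.83-fold, and Tmem79 fell 2.04-fold but did not pass with log2 Ttn in the fit. Crls1, the cardiolipin synthase, named after its values were seen, fell from 213.5 ± 25.4 to 120.5 ± 10.9 CPM.

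The largest rise among genes without overlap that reached 50 CPM in either group was Pmepa1, a membrane protein that TGF-beta induces and that dampens its signal. It stood at 481.2, 421.4, 446.3 and 447.2 CPM in DIO and at 80.6, 128.9, 96 and 82 CPM in lean. The groups were far apart, 4.63-fold in the means (log2 change 2.23, SE 0.13, adjusted p = 3.78e-06), and with log2 Ttn in the fit the change was 2.45. Of 9 tested genes of TGF-beta, activin and BMP signalling 5 rose and none fell (median log2 change 0.29), beside 24.6% rises among all tested genes. Eng, endoglin, a co-receptor of endothelial cells, stood at 141.4, 144, 150.9 and 139.5 CPM in DIO and at 70.8, 85.3, 55.1 and 52.7 CPM in lean. Thbs1, thrombospondin 1, which can activate latent TGF-beta, stood at 8.27, 26.9, 31.4 and 13.3 CPM in DIO and at 3.15, 5.02, 2.33 and 2.21 CPM in lean. DIO 2 and 3 were highest for Thbs1 and its rise varied most among these genes (log2 change 2.20, SE 0.37). Thbs1 reached the limit of 10 CPM through its DIO level (lean mean 3.18 CPM), so the count of rises was partly set by the filter. Igfbp5, an insulin-like growth factor binding protein, rose 1.64-fold and Skil, a Smad repressor, 1.20-fold. Igfbp5 did not pass with log2 Ttn in the fit (adjusted p = 0.0528), and Skil passed neither with it (0.124) nor with the index (0.146). The rise of Skil was also lost after rescaling (adjusted p = 0.0646 with median-of-ratios and 0.0614 with TMM factors), with edgeR (0.0683) and DESeq2 (0.0744), and without DIO 2, DIO 3, lean 1 or lean 5 (0.0816 to 0.109). Bmpr2, a BMP receptor, had a log2 change of 0.22 (adjusted p = 0.097).

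Genes of the extracellular matrix rose: 11 of 13 tested members did, beside 24.6% of all tested genes. None fell, and the median log2 change was 0.69. Thbs1 was counted here too, with the limit of the filter given above. Prelp, a leucine-rich proteoglycan, stood at 957.8, 919.8, 685.1 and 747.7 CPM in DIO and at 212.8, 174.7, 183.4 and 272.3 CPM in lean, a rise of 3.93-fold. Bgn, biglycan, another of that family, stood at 65, 107.7, 106.2 and 91.2 CPM in DIO and at 36.5, 35.5, 32.6 and 23.4 CPM in lean. DIO 1 was the lowest DIO library for Bgn and for several stromal genes below. Basement membrane chains Lama5 and Lamc1 rose 2.04-fold and 1.41-fold, Fn1, fibronectin, 2.10-fold, and Col5a1, a fibrillar collagen chain, 2.54-fold. Col3a1, the most abundant of the collagens tested, had 161.5 ± 52.5 CPM in DIO and 114.6 ± 36.9 CPM in lean (adjusted p = 0.214). With log2 Ttn in the fit 5 of the 13 passed, and with the library index 7. Lamc1 and Col5a1 were among those that did not pass with log2 Ttn, and Prelp, Bgn, Lama5, Fn1 and Thbs1 were those that did.

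All tested endothelial markers rose: 10 of 10 did, of 17 fixed, beside 24.6% rises among all tested genes. Their median log2 change was 0.96, and 8 passed with log2 Ttn in the fit. The 7 markers not tested had a mean below 10 CPM. Sox17, a transcription factor of arterial endothelium, stood at 14.7, 17.3, 17.4 and 17.3 CPM in DIO and at 8.3, 7.81, 7.98 and 6.75 CPM in lean. It reached the limit of 10 CPM through its DIO level, so the count was partly set by the filter. Its relative Sox18 rose 1.99-fold. Dll4, a Notch ligand of arteries and sprouting tips, rose 2.24-fold, Thbd, thrombomodulin, 2.00-fold, She 2.02-fold, Egfl7 1.83-fold and Adgrl4, an adhesion receptor, 1.61-fold. Other large rises outside the list are also known from vessels. Cd93, a surface glycoprotein of endothelium, stood at 76.7, 133.5, 149.7 and 110.1 CPM in DIO and at 55.3, 41.1, 38.1 and 32.6 CPM in lean. Hspa12b, a heat shock protein relative, rose 2.34-fold and Npr1, the receptor of atrial natriuretic peptide, 2.32-fold. The summed level of the 17 markers was 547.5 to 714.7 CPM in DIO and 287.7 to 374.5 CPM in lean.

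Marker levels of several other cell types were higher in DIO too. Of 6 tested mural and smooth muscle markers 4 rose, beside 24.6% rises among all tested genes. Rgs5, of pericytes, rose 1.73-fold, Flna, an actin crosslinker, 1.99-fold, Tagln2, an actin binder, 2.68-fold, and Myl9, a smooth muscle myosin light chain, 1.64-fold. Des, desmin, which is also made in skeletal muscle, fell by 0.60. It passed with log2 Ttn in the fit and did not pass with all 10 libraries (adjusted p = 0.608). Lean 1, low in Ttn, had 56.6 CPM of Des, and the DIO libraries had at most 47.9 CPM. Of 7 tested fibroblast and progenitor markers 5 rose, again beside 24.6% of all tested genes. Of these 5, 4 (Prelp, Fn1, Fbn1, Col5a2) were also in the matrix list. With log2 Ttn in the fit 2 of the 7 rose, and 2 with the library index. The groups did not overlap for 2 of the 7, beside 36.6% of all tested genes. The summed level of the fibroblast list was 1167 to 1337 CPM in DIO and 439.8 to 545.0 CPM in lean. Prelp alone had 827.6 ± 131.8 CPM in DIO and 210.8 ± 44.1 CPM in lean, a large part of that difference. The sum of the mural list was 678.2 to 871.1 CPM in DIO and 444.9 to 518.5 CPM in lean. In epididymal white fat Rgs5 and Myl9 of this list had log2 changes of -1.37 and -1.14. Flna and Tagln2 had 1.46 and 2.15 there, so the 4 did not move alike in that depot. In brown fat the 27 macrophage and leukocyte markers summed to 100.9 to 230.2 CPM in DIO and 57.1 to 78.9 CPM in lean. Only 4 were abundant enough to test, and all 4 rose, beside 24.6% rises among all tested genes. Ctss, Csf1 and Mrc1 reached the limit of 10 CPM through their DIO levels, with lean means of 4.78, 6.89 and 8.19 CPM, so this count was partly set by the filter. Ctss, the cathepsin of antigen-presenting cells, stood at 7.44, 18.1, 26.7 and 20.5 CPM in DIO and at 5.74, 3.47, 5.98 and 3.94 CPM in lean. Csf1, the growth factor of macrophages, stood at 15, 29, 25.3 and 21.9 CPM in DIO and at 8.06, 6.71, 7.16 and 5.63 CPM in lean. Sirpa rose 2.26-fold, and Mrc1, the mannose receptor of resident macrophages, 2.37-fold with DIO 1 (9.41 CPM) inside the lean range. Ctss (adjusted p = 0.0997) and Mrc1 (0.193) did not pass with log2 Ttn in the fit. Il1b, Cd5l, Vsig4 and Marco were below 1 CPM in all 8 libraries. Lymphoid markers (10.6 to 17.3 CPM in DIO, 4.05 to 6.68 CPM in lean), nerve markers (14.7 to 17.9 and 7.77 to 10.8 CPM) and erythroid markers (8.56 to 14.9 and 3.56 to 5.43 CPM) were too low to test. Mesothelial markers were lower in DIO (0.875 to 1.25 against 2.70 to 5.36 CPM). The other sums were higher in all DIO libraries beside the endothelial and matrix results, and their part in those results was not tested.

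**Figure D4:**
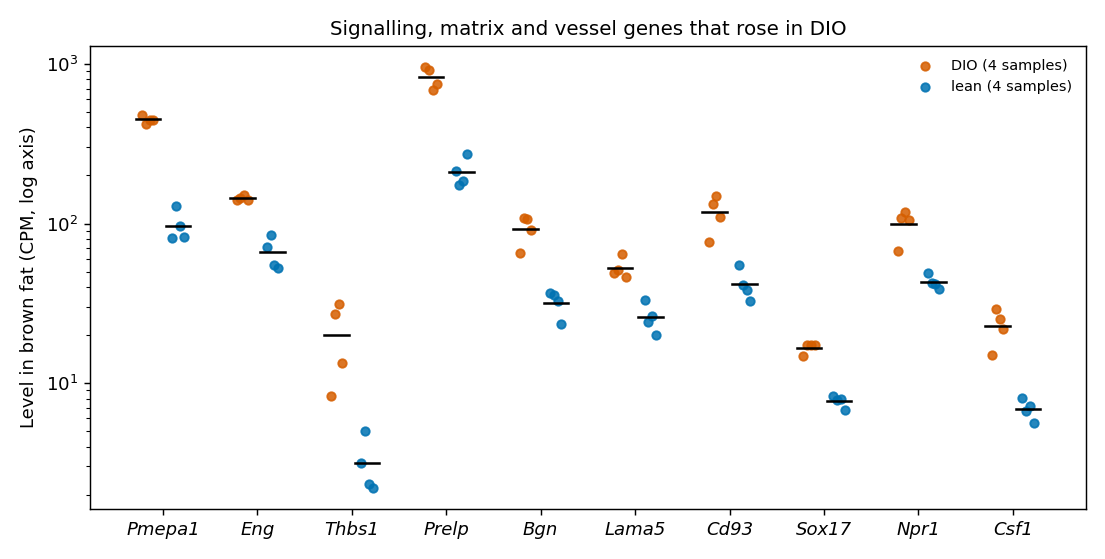
CPM on a log axis of 10 genes that rose, each point a library (4 DIO, 4 lean) and each bar a group mean. Every DIO library lies above every lean library in all 10, and Thbs1 has the widest spread.

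Some white adipocyte markers, iron genes and genes outside the lists changed as well. Nnat, neuronatin, a small membrane protein of white adipocytes, stood at 20.2, 14.7, 41.9 and 48.9 CPM in DIO and at 2.98, 1.93, 4.71 and 1.97 CPM in lean. No value overlapped, and the log2 change was 2.96 (SE 0.36, adjusted p = 0.000175). Nnat reached the limit of 10 CPM through its DIO level. It was 1 of 5 tested white adipocyte markers that rose, while Irs1 and Hsd11b1 fell and Fabp4 did not pass. Of the 5, 60% were called, beside 38.7% of all genes. Of 4 tested iron genes 2 rose and 1 fell (75% called, beside 38.7% of all genes). Slc40a1, the iron exporter ferroportin, stood at 56.3, 46.9, 61.8 and 65.2 CPM in DIO and at 22.6, 13.7, 14 and 30.8 CPM in lean. Steap3, a ferrireductase, rose 2.11-fold and Aco1, which doubles as an iron sensor, fell as given above. Nes, nestin, an intermediate filament of progenitor and vessel cells, rose 2.96-fold, and Arhgef2, a guanine nucleotide exchange factor bound to microtubules, 3.42-fold from 22.5 ± 1.97 to 77.1 ± 13 CPM. Pea15a, a death effector domain protein, rose 2.27-fold, and Ctcflos, a long noncoding RNA, from 32.9 ± 3.33 to 98.7 ± 7.36 CPM.

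Of 11 tested genes of glutathione and detoxification 6 rose and 4 fell, 90.9% called beside 38.7% of all genes, without a common direction. Gss, glutathione synthetase, rose 2.51-fold, Ephx1, an epoxide hydrolase, 2.07-fold, and Fmo2, a flavin monooxygenase, 2.44-fold, while its relative Fmo1 fell 1.51-fold. Gss lies on the strand opposite Acss2 with shared exon positions, and the 2 genes moved in opposite directions. Gstm1, a glutathione transferase with near-identical relatives whose reads could be shared, rose 1.24-fold but did not pass with log2 Ttn in the fit (adjusted p = 0.0541). In that fit 4 of the 11 rose and 2 fell. Of 11 tested peroxisome genes 27.3% were called, below the 38.7% of all genes. Cat, catalase, rose from 717.2 ± 44.6 to 958.7 ± 95 CPM, Pecr and Pxmp4 fell by 0.28 and 0.25, and 8 did not pass. None of these 3 passed with log2 Ttn in the fit (adjusted p = 0.0848 to 0.104). Pecr missed the threshold without DIO 2, DIO 4, lean 4 or lean 5 (0.0590 to 0.0707), and Pxmp4 without DIO 2, DIO 3, lean 1, lean 4 or lean 5 (0.0708 to 0.0974). Of 12 tested genes of interferon response and antigen presentation 2 rose and 2 fell (33.3% called, also below the 38.7% of all genes). Mr1 and Cd1d1, which present small molecules and lipids to T cells, fell 2.05-fold and 1.39-fold, and B2m and Ifi203 rose by 0.60 and 0.56 on the log2 scale with overlap of the groups. Mr1 reached the limit of 10 CPM through its lean level (DIO mean 7.92 CPM), so the count of falls was partly set by the filter. With log2 Ttn in the fit none of the 12 rose and 5 fell, so the 2 rises rest on the fit without it. B2m missed the threshold without DIO 2, 3 or 4 or lean 3 or 5 (0.0513 to 0.0726), and Ifi203 without DIO 3 or 4 or lean 4 or 5 (0.0506 to 0.0557).

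The change with diet was then set against that in 2 white depots, epididymal fat (eWAT) and retroperitoneal fat, with 5 DIO and 5 lean libraries each. Retroperitoneal libraries with lymphoid or muscle markers were kept. In that depot Ttn had 20.2 ± 39.5 CPM in lean and Ctss 949.6 ± 733.9 CPM in DIO (SD, n = 5). Which mouse gave which depot is not known from the labels, so libraries were treated as independent. Against eWAT 948 of 2218 tested genes (42.7%) differed in their change, 411 with the change in brown fat above and 537 below. Against retroperitoneal fat 647 of 2182 (29.7%) differed, 229 above and 418 below. After rescaling the splits were 556 above and 428 below, and 370 above and 270 below, so which side held more genes turned with the scaling. The median difference over all genes was -0.09 against eWAT and -0.135 against retroperitoneal fat, and every gene that differed kept the sign of its difference after rescaling. Of the 948 and 647 genes, 839 and 499 also passed after rescaling.

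The differences of lowest p were mostly genes that changed far more in white fat than in brown fat. Zranb3 had 5.97 ± 0.828 CPM in DIO and 6.04 ± 1.83 CPM in lean brown fat, against 94 and 3.65 CPM in eWAT and 75.6 and 3.13 CPM in retroperitoneal fat. Its log2 changes were 0.01, 4.36 and 4.18. Ctsk, a cathepsin, Tlr13, a receptor of bacterial RNA, and Dhrs9 changed by 4.94, 5.42 and 5.23 in eWAT and by 0.47, 0.87 and 1.41 in brown fat. In lean and DIO brown fat Tlr13 stood at 0.479 and 1.85 CPM and Ctsk at 2.30 and 3.47 CPM. At such levels the added 1 CPM shrinks the log2 change, and both genes were tested because of their level in white fat. Creg1, Cdk18, Nceh1, a cholesterol ester hydrolase, and Tpd52 changed by 1.69, 3.34, 4.10 and 2.43 in retroperitoneal fat and by -0.48, -0.03, 1.06 and -0.14 in brown fat. In the other direction 2010016I18Rik fell by 4.38 in eWAT and stood below 1 CPM in brown fat on both diets, where its change (-0.15) has little to rest on. Of 23 macrophage and leukocyte markers tested, 22 had a lower change in brown fat than in eWAT and 21 than in retroperitoneal fat, and 1 (Csf1) a higher change than in either. A lower change was found for 537 of 2218 and 418 of 2182 of all tested genes. In brown fat 23 of the 27 markers fixed were below 10 CPM, where the added 1 CPM shrinks a change, and most were tested because of their level in white fat. The list had medians of 0.99 in brown fat and 3.44 and 3.05 in white fat. Ctss reached 1604 CPM in DIO eWAT and 18.2 CPM in DIO brown fat.

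Endothelial markers went the other way. In 11 of 14 tested the change in brown fat was above that in eWAT and in 8 above that in retroperitoneal fat. Among all tested genes it was above in 411 of 2218 and 229 of 2182. In brown fat 10 of the 17 markers fixed reached 10 CPM, so some of the 14 were tested because of their level in white fat. The list had medians of 0.90 in brown fat, -0.66 in eWAT and -0.04 in retroperitoneal fat. Eng changed by 1.14, -0.05 and 0.41 in these 3 depots (adjusted p of the differences 0.00059 and 0.0078). Pmepa1 rose more in brown fat, by 2.23 against 0.56 and 0.80 (adjusted p = 0.000935 and 0.011). Hadh and Cat both changed by 0.42 in brown fat, by -0.95 and -0.56 in eWAT and by -0.74 and -0.34 in retroperitoneal fat, and all 4 differences passed. Gnas changed by 0.68 in brown fat and by 0.01 and -0.02 in the white depots, and both differences passed. Glul fell more in brown fat, by 1.36 on the log2 scale against -0.49 and -0.29. Pck1 differed by 3.04 and 1.88 on the log2 scale, with means of 2244 CPM in lean and 308.9 CPM in DIO eWAT and of 2443 and 743 CPM in retroperitoneal fat.

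The changes of Nnat and Phgdh had opposite signs in brown and white fat, where the test was of the difference and not of the change within white fat. Nnat changed by 2.96 in brown fat, -2.16 in eWAT and -0.67 in retroperitoneal fat (differences 5.12, SE 0.53, and 3.63, SE 0.60). Even so the DIO brown fat level (31.45 CPM) stayed below the 356 and 474 CPM of the DIO white depots. Phgdh, the first enzyme of serine synthesis, named after its values were seen, stood at 12.6, 15.5, 31.2 and 27.6 CPM in DIO brown fat and at 3.63, 2.41, 4.22 and 1.77 CPM in lean. It changed by 2.46 in brown fat, -1.39 in eWAT and -1.24 in retroperitoneal fat, where its DIO means were 160.5 and 177.1 CPM. Among fatty acid synthesis genes the change in brown fat was below that in eWAT for 4 of 9 and above it for 1, and among cholesterol genes below for 3 of 7 and above for 1. Of all 2218 tested genes it was below for 537 and above for 411. Acsl3 differed by -1.03 (SE 0.20), Acsl4 by -1.16 (SE 0.17) and Acss1 by -1.08 (SE 0.24), and Nr1h3 by 0.40 (SE 0.12). No difference from eWAT was shown for 3 of the genes with large falls: Acss2 differed by 0.61 (SE 0.47, adjusted p = 0.308), Elovl6 by 1.27 (SE 0.58, adjusted p = 0.083) and Nsdhl by -0.29 (SE 0.34, adjusted p = 0.516). These errors leave room for sizeable differences. Against retroperitoneal fat Acsl3, Acsl4 and Acss1 differed by -0.998, -1.09 and -0.75, of which Acsl4 alone passed after rescaling (adjusted p = 0.0557 for Acsl3 and 0.0734 for Acss1). The difference of Acss1 also missed the threshold without brown fat DIO 2, DIO 3 or lean 5. The change of Elovl6 was smaller in brown fat (difference 1.84, SE 0.36, adjusted p = 0.0011), and Acss2 differed by 0.91 (SE 0.35) with an adjusted p of 0.058 that became 0.031 after rescaling. DIO brown fat had 631.2 CPM of Elovl6, and the DIO white depots 23.9 and 29.6 CPM.

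**Figure D5:**
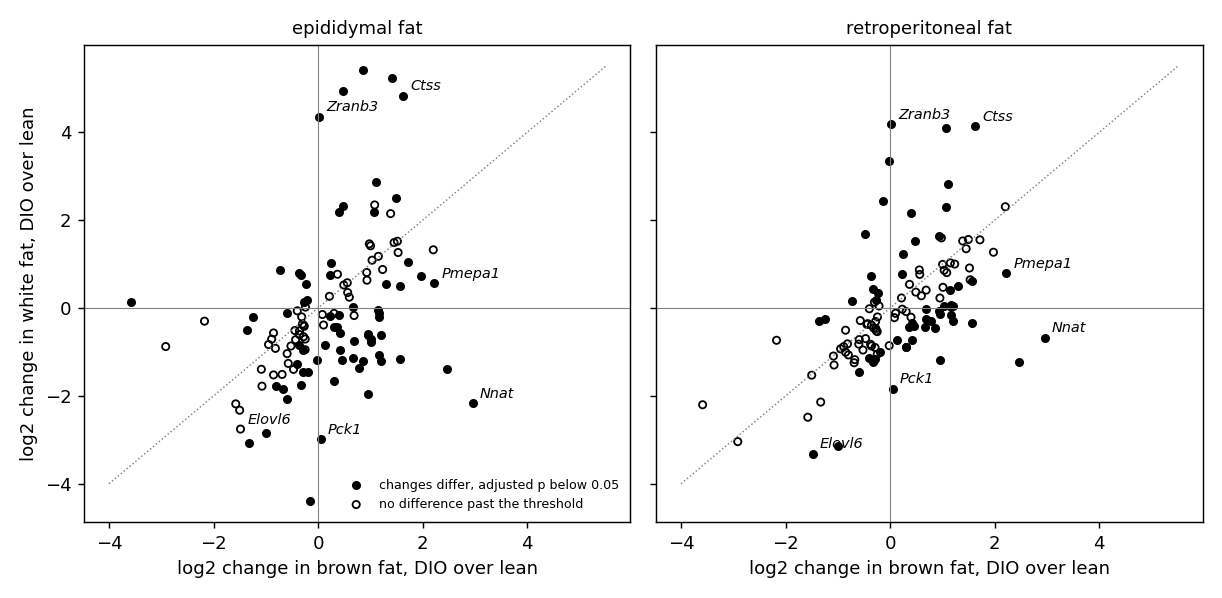
Log2 change with diet of 122 genes in brown fat (horizontal) and in eWAT or retroperitoneal fat (vertical), filled where the changes differ. The dotted line marks equal change. Ctss and Zranb3 lie far above it and Nnat and Pck1 below it.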

How the data were processed

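The labels describe TruSeq stranded mRNA libraries, paired 100-base reads, from frozen tissue. FastQC, STAR, HTSeq and DESeq2 are named in the submitters' processing notes. For their versions, the genome build and the strand setting of the counting, nothing is stated in the labels or the table. The deposited table holds CPM, made by the authors from each library's reads, for 13153 complete genes (1 incomplete row was left out), of which 13139 identifiers are in GENCODE M21. All values were whole multiples of 1 read (tolerance 0.001), so reads were recovered for edgeR and DESeq2. 1 column with no sample was not used.

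Tests used limma 3.58.1 (R 4.3.3) on log2(CPM + 1) with a trended prior variance, a minimum mean of 10 CPM and Benjamini-Hochberg adjustment at 0.05. edgeR 4.0.16 and DESeq2 1.42.0 were alternatives. The depot tests took the difference of the diet changes. The code was tested on simulated data. Figures used matplotlib 3.10.9. Other alternatives were pseudocount 5, other filters, rescaling, array weights, all 10 libraries, log2 Ttn or a 10-gene index as covariate, and each library left out. For retroperitoneal fat the libraries with lymphoid or muscle markers were also left out together. Totals of 18.9 to 28.9 M reads and 4 libraries a group limit the precision.

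Genes were named by rule: the 12 largest rises and 12 largest falls that passed without overlap and had at least 50 CPM in the higher group, tested list members (at most 8 with values per list), Ttn, Neb, Tnnc2 and Myl1, and 5 genes per depot test. A few genes that the rule names are not reported here. The members and lists were chosen with earlier results of these data known.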

Additional observations from a re-analysis of the deposited data

Results flagged for a closer look

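Among 117 named genes, 11 of 234 groups of 4 libraries had 1 library far from the other 3, close to the 1 in 20 that chance gives. DIO 1 stood apart in 5 genes. It was low in Pea15a (55.28 CPM), Sox17 (14.75 CPM) and Sirpa (28.93 CPM) and high in Cox7b (525.5 CPM) and Myl1 (62.02 CPM). Decr1 was high in DIO 4 (1263 CPM). Lean 1 was high in Myl9 (14.32 CPM), and lean 5 in Mpc2 (519.1 CPM). Lean 4 was high in Fn1 (28.08 CPM) and low in Adgrl4 (50.76 CPM) and Fmo2 (12.45 CPM).

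The diet change differed between brown fat and eWAT in 948 genes and between brown fat and retroperitoneal fat in 647. Against eWAT the log2 change in brown fat was lower for Zranb3 (-4.34), Ctsk (-4.48), Tlr13 (-4.55), Dhrs9 (-3.83), Ctss (-3.20), Glul (-0.87), Acsl3 (-1.03), Acsl4 (-1.16) and Acss1 (-1.08). It was higher for 2010016I18Rik (4.23), Nnat (5.12), Phgdh (3.85), Pck1 (3.04), Hadh (1.38), Cat (0.98), Eng (1.19), Pmepa1 (1.66), Gnas (0.66) and Nr1h3 (0.40). Against retroperitoneal fat it was lower for Zranb3 (-4.16), Creg1 (-2.17), Cdk18 (-3.36), Nceh1 (-3.03), Tpd52 (-2.57), Ctss (-2.51), Glul (-1.07), Acsl3 (-0.998), Acsl4 (-1.09) and Acss1 (-0.75). It was higher for Nnat (3.63), Phgdh (3.69), Pck1 (1.88), Hadh (1.16), Cat (0.75), Eng (0.73), Pmepa1 (1.43), Gnas (0.70) and Elovl6 (1.83).

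Outside the comparison, Ttn reached 765.3 CPM in DIO 5 and 294.8 CPM in lean 2, above the highest level among the 8 libraries used, 106.7 CPM in lean 3.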

How the results depend on the processing

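The count of 675 changed genes (429 rises, 246 falls) fell to 395 with log2 Ttn in the fit (212 rises) and the falls to 162 with the library index, while a minimum mean of 1 CPM gave 696 rises. Leaving out 1 library gave 532 to 700 changed genes, 328 to 474 rises and 186 to 231 falls. The log2 Ttn difference ran from -4.84 (without lean 1, exact permutation p = 0.0286) to -2.99. Against eWAT the count ran from 836 to 1039 and against retroperitoneal fat from 516 to 720 with 1 library left out. Of 105 changed brown fat genes that were named, 32 missed the threshold with log2 Ttn, 20 with the index, 4 with all 10 libraries, 1 (Skil) with median-of-ratios factors and 17 without at least 1 library. None of these 105 reversed, while of all 675 changed genes 674 kept their sign with log2 Ttn and 673 with all 10 libraries. Among named genes the sign turned in some that had not passed: Fabp4 (-0.062 to 0.0164 with 1 library left out, 0.0017 with all 10 libraries, 0.0053 with the index, 0.0107 without lean 4), Pck1 (-0.024 with DESeq2, -0.098 with log2 Ttn, -0.014 with edgeR, -0.0037 with median-of-ratios factors, -0.106 to 0.139 with 1 library left out, -0.0019 without DIO 1), and, with log2 Ttn, Col3a1 (-0.0077), Neb (0.77) and Tnnc2 (0.61). The cause was not tested. No paired analysis was possible because replicate numbers follow record order and tie no libraries together. With 4 libraries a group the smallest exact p is 0.0286.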

Other observations

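Of 11 tested genes of glycolysis and glycogen 4 fell and 1 rose, beside 38.7% called among all genes. Pdk1 was 1 of the falls. Pfkfb1, which sets the level of the glycolysis activator fructose 2,6-bisphosphate, stood at 27.3, 13.9, 22.9 and 20.5 CPM in DIO and at 31.4, 29.7, 40.0 and 33.8 CPM in lean, a fall of 1.59-fold with no overlap. Phka1, a subunit of phosphorylase kinase, fell 1.35-fold. Pygb, a glycogen phosphorylase, rose 1.24-fold with overlap. With log2 Ttn in the fit Pfkfb1 (adjusted p = 0.148), Phka1 (0.337) and Pygb (0.705) did not pass. Pygb also missed the threshold without DIO 3, DIO 4, lean 3, lean 4 or lean 5 (0.0566 to 0.0947).

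Of 11 tested genes of the unfolded protein and stress response 3 rose and 1 fell (36.4% called, beside 38.7% of all genes), and after median-of-ratios rescaling 2 rose and 5 fell. Dnajc10, a disulfide reductase of the endoplasmic reticulum, rose 1.31-fold but did not pass with log2 Ttn in the fit (adjusted p = 0.0756), where 1 gene of the list rose and 1 fell. The change of this list in brown fat was below that in eWAT for 10 of 12 tested genes and below that in retroperitoneal fat for 8, with medians of 0.15 in brown fat, 0.76 in eWAT and 0.55 in retroperitoneal fat. Of all tested genes 537 of 2218 and 418 of 2182 were below. White adipocyte markers went the other way, with the change in brown fat above that in eWAT for 5 of 5 and above that in retroperitoneal fat for 2. Of all tested genes 411 of 2218 and 229 of 2182 were above.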
